A study of Mus musculus with 12 samples.

Results

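The adenylyl cyclases described here are the 9 membrane-bound enzymes *Adcy1* to *Adcy9*, chosen by gene symbol from a table of 27754 genes of the neonatal mouse cochlea. All 9 were in the table and all 9 passed the filter on low values. RNA was taken from the cochlear sensory epithelium of single pups and sequenced in 12 libraries, 11 of which are in the deposited values. The question was how the genes of this epithelium differ when β-catenin, the effector of canonical Wnt signaling, is stabilized at an earlier and at a later neonatal age. Treated pups were Sox2-CreER/+; β-catenin-flox(Exon3)/+ and untreated pups β-catenin-flox(Exon3)/+ without Cre. Sox2-CreER is a knock-in allele, and the authors name its lower *Sox2* levels as a limitation. Carrying this allele and stabilized β-catenin therefore cannot be told apart between treated and untreated pups. All pups were of mixed C57BL/6 and CD1 strain, carried the floxed allele and received tamoxifen through the milk, since the mothers were injected on day 1 (P1 groups) or day 4 (P4 groups). The tissue was taken 72 h later, so that P1 libraries hold tissue of day 4 and P4 libraries tissue of day 7. There were 3 P1 untreated, 3 P1 treated, 3 P4 untreated and 2 P4 treated libraries. P4 treated replicate 2 is absent from the values and was not analysed here. The authors excluded 1 sample for insufficient Cre activation, since its *Ctnnb1* transcripts lacked excision of exon 3. Each library came from both ears of a different pup. Cre was driven by *Sox2* and so acts in SOX2+ cells, mostly supporting cells, while the RNA came from the whole epithelium. Cell Recovery Solution was used to separate it from mesenchyme and neurons. In such bulk RNA, fewer cells of a type and less RNA per cell cannot be told apart.

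Adenylyl cyclases make the second messenger cAMP from ATP. Receptors coupled to the stimulatory G protein Gs turn them on, receptors coupled to Gi turn several of them off, and cAMP then acts through protein kinase A, exchange factors and ion channels until phosphodiesterases break it down. The isoforms differ in what else controls them. *Adcy1*, *Adcy3* and *Adcy8* belong to the group stimulated by calcium and calmodulin, *Adcy2*, *Adcy4* and *Adcy7* are stimulated by G protein βγ subunits together with Gs, *Adcy5* and *Adcy6* are inhibited by calcium, and *Adcy9* stands apart with its weak response to forskolin. In the inner ear, *ADCY1* is known as a gene of inherited hearing loss.

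The windows around the start sites of 3 members are shown, since *Adcy1* and *Adcy9* were the members that passed the test and *Adcy3* came next. They reach from 250 bases before to 50 bases after the start site in RefSeq (GRCm38.p6), and capitals mark the letters CTTTGA, the core recognized by TCF/LEF partners of β-catenin, and TGACG, part of the cAMP response element, on either strand. The *Adcy1* window is chr11:7063183-7063482 on the plus strand, that of *Adcy3* chr12:4133147-4133446 on the plus strand, and that of *Adcy9* chr16:4420449-4420748 on the minus strand.
Adcy1: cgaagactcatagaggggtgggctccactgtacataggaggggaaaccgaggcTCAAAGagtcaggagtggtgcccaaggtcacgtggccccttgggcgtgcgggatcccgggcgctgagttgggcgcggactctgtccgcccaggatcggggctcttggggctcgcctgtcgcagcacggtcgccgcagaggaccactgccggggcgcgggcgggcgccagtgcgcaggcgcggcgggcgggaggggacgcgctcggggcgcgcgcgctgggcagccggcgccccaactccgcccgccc
Adcy3: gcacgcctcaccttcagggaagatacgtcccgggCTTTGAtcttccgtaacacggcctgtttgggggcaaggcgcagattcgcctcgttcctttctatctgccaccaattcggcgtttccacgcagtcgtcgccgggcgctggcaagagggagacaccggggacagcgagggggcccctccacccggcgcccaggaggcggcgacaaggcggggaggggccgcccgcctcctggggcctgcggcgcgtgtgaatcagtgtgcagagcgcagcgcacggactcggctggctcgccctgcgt
Adcy9: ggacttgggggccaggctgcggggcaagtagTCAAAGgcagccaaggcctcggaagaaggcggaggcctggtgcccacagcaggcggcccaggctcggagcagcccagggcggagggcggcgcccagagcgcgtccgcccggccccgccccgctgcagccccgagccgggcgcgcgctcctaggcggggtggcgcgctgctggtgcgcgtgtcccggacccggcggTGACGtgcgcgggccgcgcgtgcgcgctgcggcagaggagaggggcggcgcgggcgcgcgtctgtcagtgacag

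In these windows the 6 letters CTTTGA began 197, 216 and 219 bases before the start site of *Adcy1*, *Adcy3* and *Adcy9*, and TGACG began 24 bases before that of *Adcy9*. The reference held 10 windows for 7 of the 9 genes, *Adcy1*, *Adcy2*, *Adcy3*, *Adcy4*, *Adcy5*, *Adcy7* and *Adcy9*. Of them, 1 window of *Adcy7* held both motifs as well, and no window of *Adcy2*, *Adcy4* or *Adcy5* held either. Of all 32851 windows of the same length, 16.0% held CTTTGA and 20.8% held TGACG on either strand. The 2 motifs share the letters TGA and so can overlap, which they did not in the members' windows. The G and C content of the members' windows ran from 54.7% in the first window of *Adcy7* to 79.0% in that of *Adcy5*, against a median of 52.7% over all windows. The windows of *Adcy4* and *Adcy7* and the second of *Adcy3* were at 54.7% to 58.0% and the other 5 at 68.7% or more. A match in these letters is a description and not a site of binding.

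The values are normalized counts per gene, rounded by the authors and taken here to be counts scaled by 1 factor per library. They summed to 41.2 to 44.2 M per library, with 23640 to 24433 genes above 0. The labels were checked in *Lgr5*, a Wnt-responsive gene of supporting cells. It had 8822 to 9331 normalized counts in P1 treated and 2041 to 2727 in P1 untreated libraries, and 6352 to 7306 against 2763 to 3934 at P4. *Axin2*, which the authors name as a biomarker of canonical Wnt signaling, was not raised. It had 488 to 650 in P1 treated and 606 to 970 in P1 untreated libraries, and 242 to 277 against 211 to 389 at P4. *Sox2* was lower with treatment, at 4930 to 6006 against 8042 to 10170 at P1 and 7577 to 7993 against 10101 to 10485 at P4. *Ctnnb1*, the β-catenin gene, overlapped at both ages. The 12 hair cell markers summed to 32955 to 66940 and the 12 supporting cell markers to 433257 to 709627 normalized counts, and none of them was at 0 in any library. The 10 mesenchyme markers summed to 133988 to 214745 and the 10 neuron markers to 13042 to 21824. Markers of both tissues were thus still read after the separation, and how complete it was is not known. The X-inactivation transcript *Xist*, made in female cells, was at 13 to 26 in the P1 treated, 32 to 39 in the P4 untreated, 3268 to 4180 in the P4 treated and at 16, 3030 and 2794 in the P1 untreated libraries. Sex and treatment therefore cannot be told apart at P4 and are partly confounded at P1. Sex and age likewise cannot be told apart between the treated groups and are partly confounded between the untreated ones. All 9 cyclase genes are on autosomes.

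**Figure D1:**
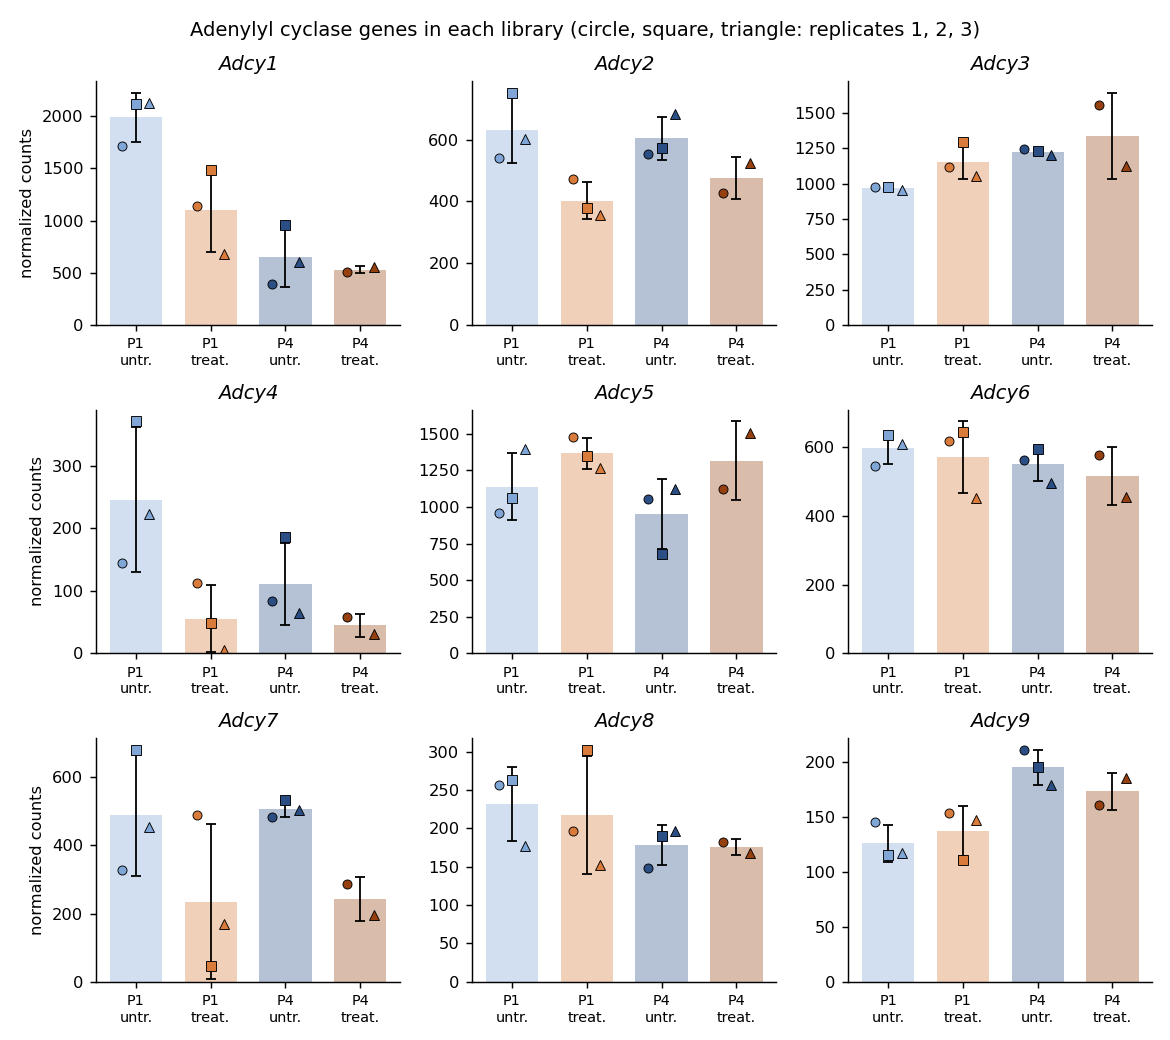
Normalized counts of each adenylyl cyclase gene in the 4 groups, with 1 point per library, bars for the group mean and error bars for the SD (n = 3, or n = 2 for P4 treated). *Adcy1* lies between 1713 and 2129 in the P1 untreated and between 393 and 953 in the P4 untreated libraries, and *Adcy9* between 115 and 145 and between 179 and 211.

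To compare levels between genes, normalized counts were divided by the kilobases of each gene's exons. In P1 untreated libraries *Adcy1* (159 ± 19.0 normalized counts per kb, SD, n = 3), *Adcy5* (158 ± 31.8), *Adcy3* (155 ± 1.90) and *Adcy2* (150 ± 25.9) had overlapping levels. *Adcy6* (88.1 ± 6.87) lay below all of them without overlap with *Adcy2*, and *Adcy7* (72.5 ± 26.5), *Adcy4* (52.7 ± 24.8), *Adcy8* (28.5 ± 5.89) and *Adcy9* (24.2 ± 3.23) followed, each overlapping its neighbour. In P4 untreated libraries the order was *Adcy3* (196 ± 3.22), *Adcy2* (143 ± 16.6), *Adcy5* (132 ± 33.4), *Adcy6* (81.3 ± 7.32), *Adcy7* (75.3 ± 3.57), *Adcy1* (51.8 ± 22.6), *Adcy9* (37.5 ± 3.08), *Adcy4* (23.8 ± 14.1) and *Adcy8* (21.9 ± 3.18). Here *Adcy3* stood clear of *Adcy2*, and *Adcy5* of *Adcy6*, while the other neighbours overlapped. *Adcy1* thus went from the top group to the sixth place by exon length.

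In treated libraries *Adcy5* (190 ± 14.7 normalized counts per kb, SD, n = 3) and *Adcy3* (185 ± 20.1) led at P1 without a gap between them, and *Adcy3* stood clear of the next, *Adcy2* (95.5 ± 14.4). At P4, *Adcy3* (214 ± 49.0, SD, n = 2) and *Adcy5* (183 ± 37.7) led and overlapped. *Adcy4* was last in both treated groups, at 11.8 ± 11.4 (SD, n = 3) and 9.52 ± 4.09 (SD, n = 2). The places depend on the length used, since *Adcy1* has 12522 bases of exon but only 3354 of coding sequence. Per kb of coding sequence *Adcy1* (593 ± 71.0, SD, n = 3) stood clear of *Adcy5* (300 ± 60.4) in P1 untreated libraries. There *Adcy3* (282 ± 3.45) also stood clear of *Adcy2* (192 ± 33.1). By this length *Adcy1* took place 3 of 9 in both P4 groups.

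The 9 genes together summed to 774 to 980 normalized counts per kb in P1 untreated, 625 to 829 in P1 treated, 740 to 780 in P4 untreated and 717 to 741 in P4 treated libraries. *Adcy1* made up 17.3% to 18.7% of this sum in P1 untreated, 8.68% to 15.3% in P1 treated, 4.24% to 9.87% in P4 untreated and 5.42% to 6.18% in P4 treated libraries. The calcium-inhibited pair *Adcy5* and *Adcy6* held 24.6% to 31.2% in P1 untreated and 35.8% to 38.9% in P1 treated libraries, and at P4 23.6% to 31.0% in untreated and 32.6% to 38.6% in treated libraries. The βγ-stimulated *Adcy2*, *Adcy4* and *Adcy7* held 26.9% to 36.6% against 13.8% to 25.1% at P1 and 29.9% to 33.1% against 21.1% to 22.3% at P4, in the same order. The shares of both classes did not overlap between treated and untreated libraries at either age. Shares add up to the whole, so that 1 class cannot move alone, and they were not tested. The calcium-stimulated class held 33.6% to 46.9% over all libraries, with overlap between all groups, and within it the share of *Adcy1* was lower and that of *Adcy3* higher in every P4 library than in any P1 untreated one.

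**Figure D2:**
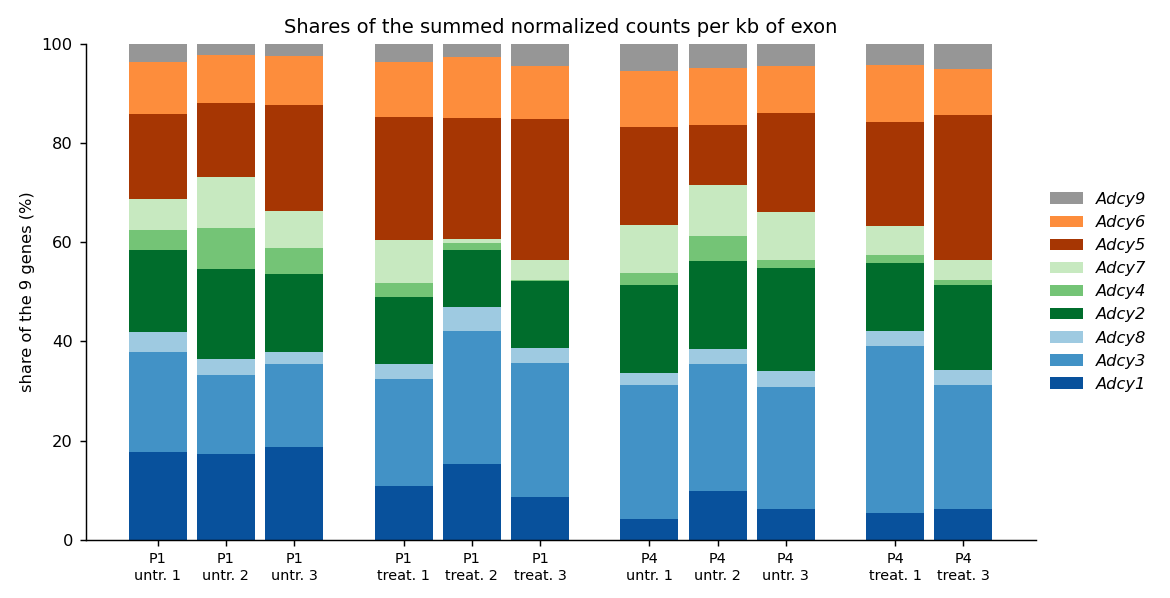
Share of each gene (%) in the sum of the 9 genes' normalized counts per kb of exon, with 1 bar per library and blue for the calcium-stimulated, green for the βγ-stimulated and orange for the calcium-inhibited class. The share of *Adcy1* is 17.3% to 18.7% in the P1 untreated libraries and 4.24% to 9.87% in the P4 untreated ones.

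Between the ages, without Cre, *Adcy1* fell and *Adcy9* rose, and the other 7 genes did not pass the test. Of all 18400 genes tested, 19.9% were called in this comparison, by an adjusted p under 0.05 in limma together with a minimum on the fold change, so that 2 of 9 cyclases is a share near that of all genes. With log2 *Xist* as a covariate 9.82% of all genes were called. By overlap alone, 3 of the 9 genes had no value in common between the P1 and P4 untreated libraries, 2 higher and 1 lower at P4, against 41.3% of all genes. The median log2 fold change of the 9 genes was -0.12, against -0.02 over all genes.

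*Adcy1* is transcribed from chromosome 11, from 7063489 to 7178506 on the plus strand of GRCm38. Its normalized counts were 1713, 2122 and 2129 in the P1 untreated libraries and 393, 953 and 600 in the P4 untreated ones. Every P4 library lay below every P1 library. The lowest P1 value, 1713, belonged to the only P1 untreated pup with low *Xist*, and all 3 P4 untreated pups had low *Xist*. The part of sex was not tested apart from the *Xist* covariate. The log2 fold change was -1.70 (SE 0.324, adjusted p = 0.0052 from limma), a level 3.25-fold lower at P4. *Adcy1* was called under every alternative, with log2 fold changes from -2.02 to -1.39 and adjusted p-values in limma from 0.00167 to 0.0481, the highest with log2 *Xist* as a covariate. In a fit with group means this covariate rests mainly on P1 untreated replicate 1, since *Xist* differed widely within no other group. Beside it, the mean log2 level of the hair cell markers was 10.01 to 10.75 in P1 untreated and 11.18 to 11.39 in P4 untreated libraries, and that of the mesenchyme markers 12.22 to 12.47 and 11.53 to 11.81. The summed normalized counts of the mesenchyme markers went the other way, from 144472 to 165852 at P1 and from 186737 to 205969 at P4, and of these 10 genes *Lum* rose while *Postn* and *Pdgfra* fell in limma. The part of these cells in the fall of *Adcy1* was not tested.

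*Adcy9*, on chromosome 16 from 4287529 to 4420498 on the minus strand, had 145, 115 and 117 normalized counts in the P1 untreated and 211, 195 and 179 in the P4 untreated libraries. The groups did not overlap, and the log2 fold change was 0.63 (SE 0.196, adjusted p = 0.0429 from limma), a rise of 1.55-fold. This call was near its threshold and was lost in 12 of 22 alternatives, over which the adjusted p in limma was 0.0228 to 0.258. With the replicate number as a block, which treats libraries of the same number as pairs, the adjusted p in limma was 0.0579. It was 0.258 with log2 *Xist* as a covariate, at a log2 fold change of 0.49. It was lost as well without a filter on low values (0.0621) and when only the groups compared entered the fit (0.0558), and without any 1 of the 6 libraries compared, with adjusted p-values from 0.0511 to 0.12 in limma, and without P4 treated replicate 1 (0.0598) or 3 (0.0604), which enter only through the shared spread.

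*Adcy3*, the cyclase of olfactory neurons and of primary cilia, lies on chromosome 12 from 4133103 to 4213525 on the plus strand. It had 974, 975 and 954 normalized counts in the P1 untreated and 1244, 1233 and 1205 in the P4 untreated libraries. Replicates differed little within either group and the groups did not overlap. The log2 fold change of 0.34 (SE 0.125) had an adjusted p of 0.0755 in limma and was not called. It was called at 0.0279 when only these groups entered the limma fit and at 0.0368 after quantile normalization, and without P4 treated replicate 1 (0.0408) or 3 (0.0399). Exons of *Adcy3* overlap those of *Cenpo* on the other strand, and reads of the 2 genes cannot be told apart without strand.

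The remaining members did not pass the test between the untreated ages. *Adcy8*, the other calcium-stimulated isoform and well known from the brain, had 257, 263 and 177 normalized counts at P1 and 149, 190 and 197 at P4. The log2 fold change was -0.37 (SE 0.265, adjusted p = 0.356 from limma), and the ranges overlapped. *Adcy4* had 144, 372 and 223 at P1 and 83, 186 and 64 at P4, with a log2 fold change of -1.19 that carried a large error (SE 0.865, adjusted p = 0.357 from limma). *Adcy5*, *Adcy6*, *Adcy2* and *Adcy7* had log2 fold changes from -0.27 to 0.12, with adjusted p-values from 0.376 to 0.922 in limma.

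**Figure D3:**
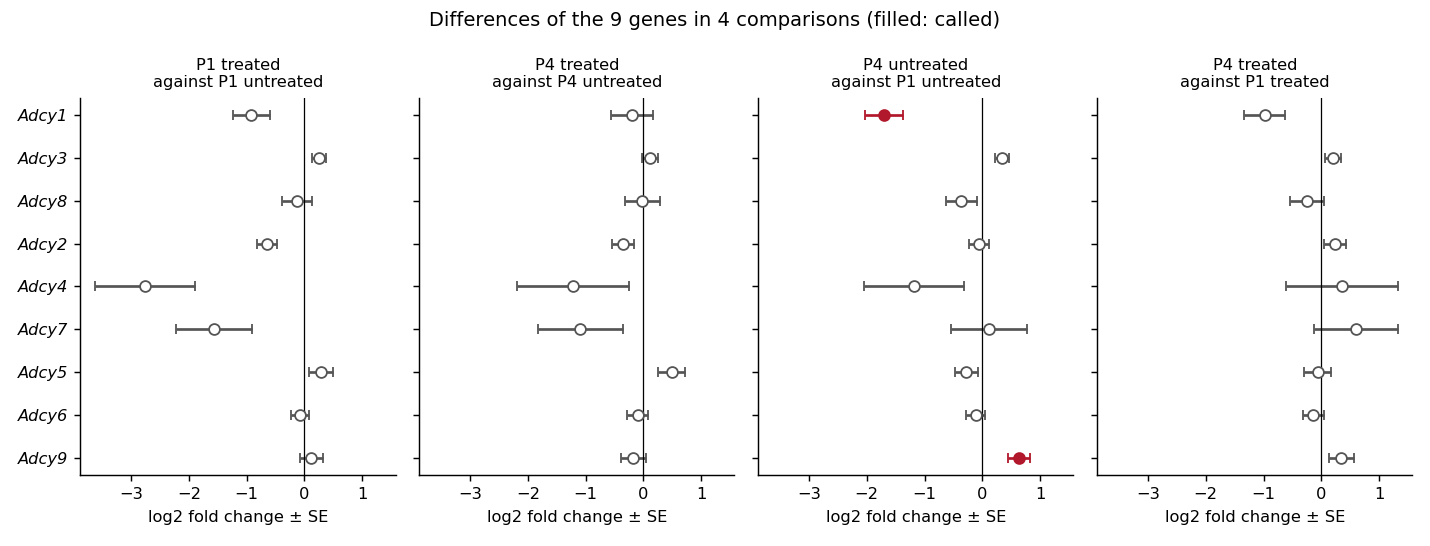
Log2 fold change of each gene with its standard error in 4 comparisons, with filled points for genes called by limma. Only *Adcy1* (-1.70) and *Adcy9* (0.63) between the untreated ages are called.

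In treated pups no cyclase was called between the ages. Of all genes, 11.1% were called between P4 treated and P1 treated libraries, and 0 of 9 cyclases in limma, with 1 at an unadjusted p under 0.05, against 27.5% of all genes. The calls over the whole table changed to 534 and 356 in place of 2034 genes without P4 treated replicate 1 or 3, and 28 with log2 *Xist* as a covariate, while sex and age cannot be told apart between these groups. The groups did not overlap in 2 of the 9 genes, against 43.1% of all genes, with *Adcy9* higher and *Adcy1* lower. *Adcy1* had 1136, 1481 and 679 normalized counts in P1 treated and 503 and 555 in P4 treated libraries, a log2 fold change of -0.98 (SE 0.363, adjusted p = 0.11 from limma). Without P1 treated replicate 3, the lowest of its group, it was called at -1.29 (adjusted p = 0.0439 from limma). *Adcy9* had 153, 111 and 147 in P1 treated and 161 and 185 in P4 treated libraries, a log2 fold change of 0.35 (SE 0.219, adjusted p = 0.341 from limma). The medians over the 9 genes and over all genes were 0.20 and -0.0049.

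With treatment at P1, no cyclase was called, while *Adcy1*, *Adcy2* and *Adcy4* were lower in every treated library than in any untreated one. Of all genes, 0.353% were called in this comparison and 0 of 9 cyclases in limma, with 4 at an unadjusted p under 0.05, all of them lower, against 12.2% of all genes in either direction. The 65 genes called over the whole table became 371 without P1 treated replicate 1, 11 without P1 untreated replicate 3 and 7 with log2 *Xist* as a covariate, with 13 to 64 without any other library. The groups did not overlap in 4 of the 9 genes, 1 higher and 3 lower, against 15.3% of all genes. The median log2 fold change of the 9 genes was -0.13, against 0.0036 over all genes.

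*Adcy2*, an isoform of neurons on chromosome 13 from 68620043 to 68999541 on the minus strand, had the smallest p of the 9. It had 540, 752 and 603 normalized counts in P1 untreated and 471, 379 and 357 in P1 treated libraries. The lowest untreated value, 540, belonged to the only P1 untreated pup with low *Xist*, and *Xist* was low in all P1 treated pups. The log2 fold change was -0.65 (SE 0.169, unadjusted p = 0.00311, adjusted p = 0.161 from limma), and -0.76 to -0.43 over the alternatives. The part of sex was not tested apart from the *Xist* covariate. At P4 *Adcy2* had 554, 574 and 684 in untreated and 427 and 523 in treated libraries, again without overlap, with a log2 fold change of -0.35 (SE 0.189, adjusted p = 0.506 from limma). Across the ages, treated libraries thus lay below the untreated ones of the same age in all 5 cases. The 10 neuron markers had a mean log2 level of 7.76 to 9.49 in P1 untreated and 7.60 to 8.02 in P1 treated libraries, which overlapped. At P4 the same markers were at 8.14 to 9.24 in untreated and 7.67 in both treated libraries, without overlap, with a median log2 fold change of -0.89 and 0 of 10 called in limma (1 at an unadjusted p under 0.05). Their part in the results of *Adcy2* was not tested. An antisense gene, *Gm35161*, overlaps an exon of *Adcy2*.

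*Adcy1* had 1713, 2122 and 2129 normalized counts in P1 untreated against 1136, 1481 and 679 in P1 treated libraries. The 1713 belonged to the only untreated pup with low *Xist*, and *Xist* was low in all P1 treated pups. The part of sex was not tested apart from the *Xist* covariate. The log2 fold change was -0.92 (SE 0.324, adjusted p = 0.287 from limma). At P4, 393, 953 and 600 in untreated and 503 and 555 in treated libraries overlapped, with a log2 fold change of -0.20 (SE 0.363, adjusted p = 0.865 from limma). The difference between the ages in the effect of treatment was 0.72 (SE 0.486, adjusted p = 0.877 from limma).

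*Adcy4*, on chromosome 14 from 55769057 to 55784095 on the minus strand, had the largest standard error of the 9 genes. It had 144, 372 and 223 normalized counts in P1 untreated and 112, 48 and 6 in P1 treated libraries. The lowest untreated value, 144, belonged to the only P1 untreated pup with low *Xist*, and *Xist* was low in all P1 treated pups. The treated libraries lay below the untreated ones but spanned a wide range, and the log2 fold change of -2.76 had an SE of 0.865 (adjusted p = 0.231 from limma). Over the alternatives the log2 fold change was -3.63 to -1.63, and the part of sex was not tested apart from the *Xist* covariate. At P4 *Adcy4* had 83, 186 and 64 in untreated and 58 and 31 in treated libraries, with no overlap and a log2 fold change of -1.21 (SE 0.967, adjusted p = 0.658 from limma).

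*Adcy7*, the main isoform of many blood cells, lies on chromosome 8 from 88272403 to 88329962 on the plus strand. It had 329, 681 and 454 normalized counts in P1 untreated and 488, 46 and 170 in P1 treated libraries. P1 treated replicate 1 lay within the untreated range and the other 2 below it. The lowest untreated value, 329, belonged to the only P1 untreated pup with low *Xist*, and *Xist* was low in all P1 treated pups. The log2 fold change was -1.57 (SE 0.654, adjusted p = 0.367 from limma), and without P1 treated replicate 1 it was -2.38 and called (adjusted p = 0.0431 from limma). Over all alternatives it was -2.38 to -0.69, and the part of sex was not tested apart from the *Xist* covariate. At P4 *Adcy7* had 484, 532 and 505 in untreated and 288 and 196 in treated libraries, which did not overlap, with a log2 fold change of -1.09 (SE 0.731, adjusted p = 0.586 from limma).

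Markers of other cell types moved with *Adcy4* and *Adcy7* in some libraries. The 10 immune cell markers had a mean log2 level of 8.05 to 8.36 in P1 untreated libraries, 7.85 in P1 treated replicate 1 and 6.75 and 6.91 in replicates 2 and 3. Their median log2 fold change at P1 was -1.07, with 0 of 10 called in limma and 8 at an unadjusted p under 0.05. The 10 mesenchyme markers had 12.47 in P1 treated replicate 1, within the 12.22 to 12.47 of the untreated libraries, and 11.22 and 10.78 in replicates 2 and 3. The 8 endothelial markers summed to 6163 to 8407 normalized counts in P1 untreated and 1871 to 3388 in P1 treated libraries, and to 1723 to 5098 and 1543 to 1695 at P4. *Emcn*, an endothelial sialomucin, made up most of the sum at P1 untreated, with 4537 to 7009 there and 420 to 2349 in P1 treated libraries. *Tek* was lower as well at P1, at 69 to 205 in treated against 282 to 319 in untreated libraries. *Tie1* went the other way, at 38 to 71 against 18 to 35, and *Flt1* and *Pecam1* overlapped. The mean log2 level of the 8 endothelial markers overlapped between treated and untreated at P1, with a median log2 fold change of -0.01. At P4, the mean log2 level of the immune markers was 7.61 to 8.41 in untreated and 7.30 to 8.08 in treated libraries, which overlapped. Treated libraries lay below untreated ones at P4 in the mean log2 level of the mesenchyme markers, 10.63 to 11.25 against 11.53 to 11.81, and of the endothelial markers, 6.10 to 6.40 against 6.75 to 6.92. The summed normalized counts of the mesenchyme markers did not follow their mean log2 level, with 191570 to 214745 in treated and 186737 to 205969 in untreated libraries at P4 and 133988 to 209972 against 144472 to 165852 at P1. *Lum*, a matrix proteoglycan and the most abundant of them, was the list's only call with treatment at P1, where it was higher (log2 fold change 0.75, adjusted p = 0.0364 from limma), and it had 140953 and 141234 in treated against 102410 to 117522 in untreated libraries at P4. Apart from 1 endothelial marker in P1 untreated replicate 2, no marker of the 3 lists was at 0, and their part in the results of *Adcy4* and *Adcy7* was not tested.

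**Figure D4:**
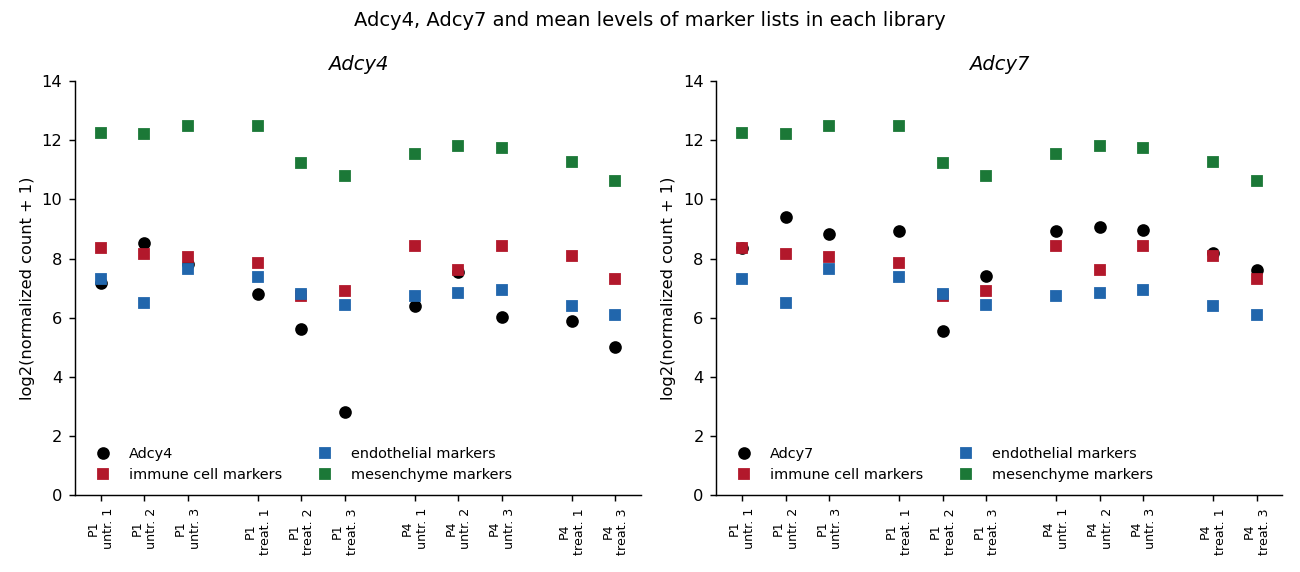
Log2(normalized count + 1) of *Adcy4* and *Adcy7* in each library (black) beside the mean level of the immune, endothelial and mesenchyme marker lists (squares). P1 treated replicate 1 had 488 normalized counts of *Adcy7* and mean immune and mesenchyme levels of 7.85 and 12.47, and replicates 2 and 3 had 46 and 170.

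The calcium-inhibited isoforms, both known from the heart, were not called with treatment. Beside the results with treatment, the mean log2 level of the 12 supporting cell markers was higher in every treated library at both ages, 13.87 to 14.07 against 13.48 to 13.69 at P1 and 13.93 to 13.96 against 13.56 to 13.86 at P4, with 3 called higher and 1 lower at P1 in limma. The list holds *Lgr5*, which also served as the check of treatment, and *Jag1*, both higher without overlap at both ages. It also holds *Sox2*, which was lower without overlap at both ages. The part of these markers in the results of *Adcy5* and the other members was not tested. *Adcy5*, on chromosome 16 from 35154877 to 35305738 on the plus strand, had 959, 1058 and 1395 normalized counts in P1 untreated and 1478, 1351 and 1269 in P1 treated libraries. These ranges overlapped and the log2 fold change was 0.28 (SE 0.207, adjusted p = 0.673 from limma). At P4, 1053, 676 and 1122 in untreated libraries lay below 1124 and 1507 in treated ones, though by only a small margin, with a log2 fold change of 0.49 (SE 0.232, adjusted p = 0.454 from limma). *Adcy6*, on chromosome 15 from 98589973 to 98610076 on the minus strand, had the smallest F statistic of the 9 genes over the 4 groups (0.497). It had 546, 637 and 609 in P1 untreated, 618, 645 and 452 in P1 treated, 564, 594 and 497 in P4 untreated and 577 and 456 in P4 treated libraries. All 4 ranges overlapped, and its log2 fold changes were -0.08 at P1 and -0.10 at P4 with treatment (SE 0.162 and 0.181, adjusted p = 0.915 and 0.866 from limma). The antisense gene *Gm29331* overlaps an exon of *Adcy6*.

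Of the rest, *Adcy3* had 1119, 1297 and 1054 normalized counts in P1 treated libraries, above the 954 to 975 of the untreated ones, with a log2 fold change of 0.25 (SE 0.125, adjusted p = 0.464 from limma). At P4 it had 1556 and 1123 in treated libraries, on either side of the untreated range. *Adcy8*, on chromosome 15 from 64697084 to 64922296 on the minus strand, had 197, 303 and 153 in P1 treated and 183 and 168 in P4 treated libraries, which overlapped the untreated ranges at both ages. *Adcy9* had log2 fold changes with treatment of 0.12 at P1 and -0.17 at P4 (SE 0.196 and 0.219, adjusted p = 0.887 and 0.799 from limma).

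At P4, 0.0543% of all genes were called between treated and untreated libraries, and 0 of 9 cyclases in limma, with 0 at an unadjusted p under 0.05, against 11.6% of all genes. The 10 genes called over the whole table became 6 to 22 on leaving out a library, the fewest without P4 treated replicate 1 and the most without P4 untreated replicate 3, and 2 with log2 *Xist* as a covariate. The groups did not overlap in 4 of the 9 genes, *Adcy5* higher and *Adcy2*, *Adcy4* and *Adcy7* lower, against 33.5% of all genes. The median log2 fold change of the 9 genes was -0.17, against 0.0024 over all genes. *Adcy2* and *Adcy4* were the members that lay lower without overlap at both ages. No cyclase was called for an effect of treatment that differed between the ages, and none had an unadjusted p under 0.05, while 0.0% of all genes (0 of 18400) were called in this limma test and 1067 had an unadjusted p under 0.05. The smallest adjusted p of a member was 0.877, for *Adcy1*. With 1 effect of treatment over both ages in an additive model, 1.22% of all genes and 0 of 9 cyclases were called in limma, and 5 of the 9 had an unadjusted p under 0.05, against 16.7% of all genes. The share of all genes called was 0.244% to 3.02% on leaving out a library, the lowest without P1 untreated replicate 3 and the highest without P1 treated replicate 1. These were *Adcy2* (log2 fold change -0.51, SE 0.128, adjusted p = 0.0809), *Adcy4* (-2.07, SE 0.656, adjusted p = 0.147), *Adcy7* (-1.36, SE 0.47, adjusted p = 0.181), *Adcy1* (-0.60, SE 0.254, adjusted p = 0.265) and *Adcy5* (0.37, SE 0.151, adjusted p = 0.245), the last the only one higher. Without P1 treated replicate 1, *Adcy7* was called in this model at -1.74 (adjusted p = 0.0393 from limma).

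The genes most like *Adcy1* over the 11 libraries by Pearson's r of the log2 values were *Epha4* (0.977), *Dach1* (0.977), *Zfp36l2* (0.976), *Ldb1* (0.976) and *Tnc* (0.972). *Ldb1* ranked the libraries in exactly the order of *Adcy1*, with a Spearman's rho of 1.0. The genes most like *Adcy2* were *St3gal2* (0.956), *Plcxd3* (0.946), *Creb3l1* (0.928), *Entpd2* (0.924) and *Ctsf* (0.919). The libraries share age, treatment and scaling, so these coefficients describe likeness over 11 libraries, and 18400 genes were searched.

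Upstream and downstream of the cyclases, 102 of 105 listed genes of the cAMP pathway were in the table and 82 were tested. Without Cre, 18 of the 82 (22.0%) were called between the ages, 9 higher and 9 lower at P4, against 19.9% of all genes. Of all genes, 9.82% were called with log2 *Xist* as a covariate and 13.3% without P4 untreated replicate 3. Sex and age are partly confounded in this comparison, and the pathway genes are given below without their results under the alternatives. The soluble cyclase *Adcy10*, which is controlled by bicarbonate, had 0 to 9 normalized counts in any library and was not tested.

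Among 20 tested Gs-coupled receptors, 2 rose and 4 fell between the untreated ages (30.0%, against 19.9% of all genes), with a median log2 fold change of -0.62. *Crhr1*, the receptor of corticotropin-releasing hormone, went up from 501 ± 30.4 at P1 to 1501 ± 224 at P4 (normalized counts, SD, n = 3 per group), with a log2 fold change of 1.57 (adjusted p = 7.4e-05 from limma). *Adora2b*, an adenosine receptor, fell from 79.7 ± 4.93 to 22.3 ± 7.51 (-1.83, adjusted p = 0.00439 from limma), and *Ptgir*, the prostacyclin receptor, from 372 ± 103 to 99.0 ± 13.1 (-1.87, adjusted p = 0.00488 from limma). In treated libraries *Crhr1* rose by 1.55 on the log2 scale (adjusted p = 0.000417 from limma) and *Adora2b* fell by 1.36 (adjusted p = 0.0438 from limma). Of the 7 G protein α subunits none was called between the untreated ages in limma, with 4 at an unadjusted p under 0.05. *Gnas*, which encodes the stimulatory subunit Gs, had 77120 ± 5040 normalized counts at P1 and 87410 ± 2200 at P4 (log2 fold change 0.18, adjusted p = 0.219 from limma). The inhibitory subunit gene *Gnai3*, known in the hair cell for the shape of the bundle, had 8749 ± 282 and 7333 ± 181 (-0.25, adjusted p = 0.0194 from limma), a fold change under the minimum for a call.

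Of 15 phosphodiesterases, 2 rose and 4 fell, a share of 40.0% against 19.9% of all genes, in a short list that was not tested as a set. *Pde7b* rose from 69.3 ± 34.7 to 288 ± 36.0 normalized counts (log2 fold change 2.14, adjusted p = 0.00165 from limma) and *Pde4d* from 334 ± 57.8 to 591 ± 69.9 (0.83, adjusted p = 0.00506 from limma), while *Pde3a* fell from 182 ± 19.9 to 70.0 ± 25.2 (-1.42, adjusted p = 0.0127 from limma). Of 9 subunits and inhibitors of protein kinase A, *Pkia*, an inhibitor, rose by 0.62 on the log2 scale (adjusted p = 0.00217 from limma) and the other 8 were not called. The catalytic subunit gene *Prkaca* had a log2 fold change of -0.11 (adjusted p = 0.282 from limma). Of 11 anchoring proteins, *Akap2* (1.74) and *Akap9* (0.44) rose, with adjusted p-values of 0.000523 and 0.00502 in limma. Of 12 exchange factors and channels, *Popdc3* (0.97) and *Hcn2* (0.79), which encode a cAMP-binding membrane protein and a pacemaker channel, rose with adjusted p-values of 0.00258 and 0.0379 in limma. Of 8 genes of the CREB family, *Creb5* fell by 1.87 (adjusted p = 0.0407 from limma), and *Creb1* had a log2 fold change of -0.08 (adjusted p = 0.611 from limma).

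**Figure D5:**
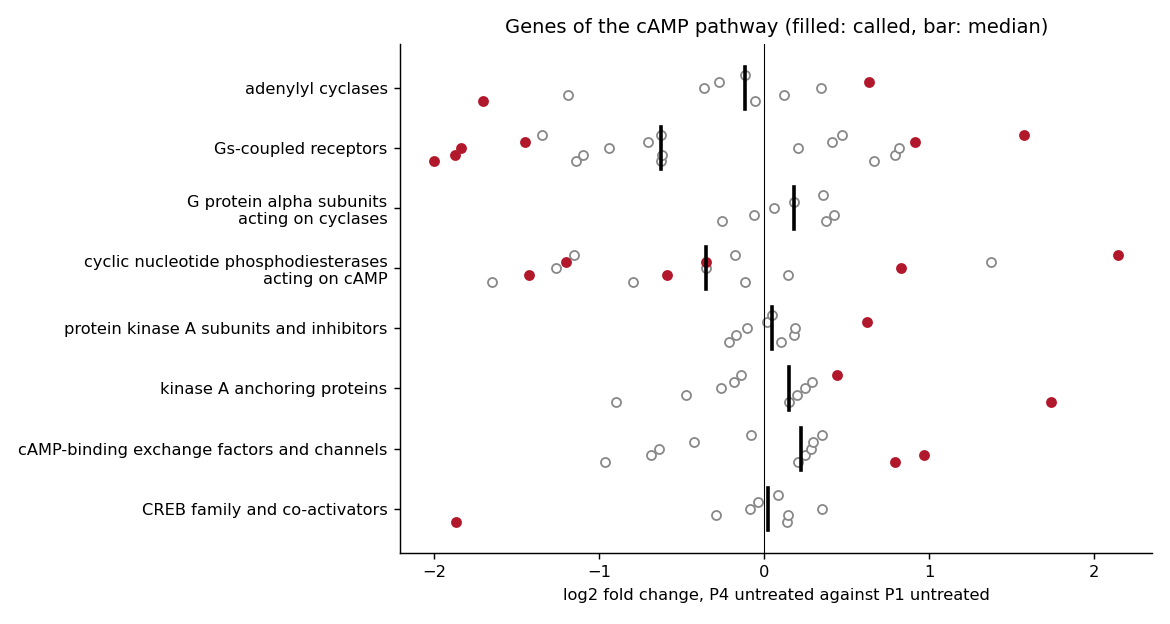
Log2 fold change between P4 untreated and P1 untreated libraries for each tested gene of the cAMP pathway, with 1 row per list, filled points for called genes and a black bar for the median. Of 9 cyclases 2 are called, of 15 phosphodiesterases 6 and of 20 Gs-coupled receptors 6, against 19.9% of all genes.

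With treatment, the listed genes gave few calls. At P1 0 of 82 were called in limma, against 0.353% of all genes, and 17 had an unadjusted p under 0.05. At P4 the count was 1 of 82, against 0.0543% of all genes, the cyclic nucleotide-gated channel gene *Cnga2*, with 343 and 687 normalized counts in P4 treated and 7 to 27 in P4 untreated libraries (log2 fold change 5.13, SE 0.573, adjusted p = 0.0126 from limma). It had 12 to 30 in all 6 P1 libraries, so that both high values belonged to the P4 treated pups, which were also the pups of that age with high *Xist*. P1 untreated replicates 2 and 3, with *Xist* at 3030 and 2794, were among those 6 libraries. Sex and treatment cannot be told apart at P4. In the additive model 2.44% of these 82 genes were called, against 1.22% of all genes. *Pde4b* rose by 0.37 (adjusted p = 0.0407 from limma) and *Akap12*, an anchoring protein, fell by 1.78 (adjusted p = 0.0388 from limma). Between the treated ages 10 of 82 (12.2%) were called, 8 higher and 2 lower at P4, against 11.1% of all genes, and sex cannot be told apart from age there. Beside those given above, *Cnga2* (log2 fold change 4.29), *Pde7b* (2.33), *Akap2* (1.45), *Hcn4* (0.95), *Gnao1* (0.67), *Prkar2b* (0.62) and *Pkia* (0.61) rose, with adjusted p-values from 0.00283 to 0.0321 in limma. *Htr7*, a serotonin receptor, fell from 17 to 49 normalized counts in P1 treated to 0 and 5 in P4 treated libraries, a log2 fold change of -3.60 (SE 0.853, adjusted p = 0.0248 from limma) that depends on the pseudocount at these low values.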

How the data were processed

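The authors used STAR 2.5.2b to align reads to mm10 and featureCounts to count them for quality control. They estimated transcript levels with Sailfish, summed these per gene with tximport and compared the groups with a count model (the authors' DESeq2). The deposited values are a score per gene, taken here to be counts that were scaled by library-wide size factors and rounded. The sources used here do not say whether they stem from featureCounts or Sailfish. Because the rounded values are not raw counts, no count model was applied to them.

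The table had 27755 entries, of which 1 with a repeated ID was left out. The log2(normalized count + 1) of each gene was fitted with limma 3.58.1 in R 4.3.3, using 4 group means, a shared spread and eBayes with trend. Fold changes are on this scale, which understates those of low genes. Genes with a mean of at least 10 over the 11 libraries were tested, and p-values were adjusted over all 18400 (Benjamini-Hochberg). Called genes had an adjusted p under 0.05 and differed by more than 1.25-fold. An additive model of treatment and age was also fitted. The scripts were tested on simulated data. Exon lengths and positions were taken from GENCODE M21 on GRCm38, which matched 27041 of 27754 IDs, and windows around start sites from RefSeq on GRCm38.p6. The kits do not mark strand, so reads from overlapping genes on opposite strands cannot be told apart.

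The members and lists were chosen with earlier results of these data known. Named were all 9 members, up to 3 called genes per pathway list and comparison with the smallest adjusted p, *Gnas*, *Gnai3*, *Prkaca* and *Creb1* at any value, the 5 genes most like each of the 2 members with the largest F over the groups, markers, and *Lgr5*, *Axin2*, *Sox2*, *Ctnnb1* and *Xist* as checks. Residuals of libraries with the same replicate number correlated at 0.135, 0.136 and 0.115 between the untreated ages and at no more than 0.026 elsewhere. Different numbers gave -0.111 to -0.0210 between the untreated ages. The largest correlation of all, 0.156, was however between different numbers, P1 treated replicate 2 and P1 untreated replicate 1. The block was read as a pairing only between the untreated ages, and the labels do not say that the numbers link pups. Alternatives were pseudocounts of 0.5 and 5, no filter, a minimum of 50, eBayes without trend, a fit without the other groups, median-of-ratios or quantile scaling, log2 *Xist* as a covariate, a replicate block, library weights, other thresholds, and leaving out each library. With group means, the *Xist* covariate rests mainly on P1 untreated replicate 1 and is a limited adjustment for sex.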

Additional observations from a re-analysis of the deposited data

How the results depend on the processing

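The number of cyclase genes called between the untreated ages was 2 and became 1 without a filter on low values, with log2 *Xist* as a covariate and with the replicate block, was 3 (with *Adcy3*) after quantile normalization and at an adjusted p under 0.1, and was 1 to 2 on leaving out a library in turn. *Adcy1* was called in each of these. Without P4 treated replicate 1 or 3, or with only the groups compared, *Adcy3* was called in place of *Adcy9*. With the replicate block, in which libraries of the same number are treated as pairs, *Adcy1* had a log2 fold change of -1.70 and an adjusted p of 0.0042 in limma. The block changed the call of no other member than *Adcy9*. The count for treatment in the additive model went from 0 to 1 at an adjusted p under 0.1, and on leaving out a library it was 0 to 1 there, for treatment at P1 and between the treated ages. For treatment at P4 and the interaction it was 0 under all alternatives run. Of 1170 values of the members under alternatives, 57 uncalled ones changed sign, 14 of them with the *Xist* covariate, and no called one did. The places by level per kb changed with the length in 20 of the cases compared. With 2 or 3 pups a group, the errors of *Adcy4* and *Adcy7* were large, and the absence of a call does not show that levels were alike. Counts and depths before scaling are unknown for these values.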
